A study of Mus musculus with 29 samples.

Results

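The WAVE and WASP actin nucleation promoters were followed as 10 genes, namely Wasf2, Nckap1, Nckap1l, Cyfip1, Cyfip2, Abi1, Brk1, Was, Wasl and Wipf1. They were chosen by symbol and matched by Ensembl ID, and each had 1 row in both count tables, so they are 10 of 38924 genes measured in blood stem and progenitor cells and 10 of 18194 genes measured in niche cells. The blood cells were LSK cells, sorted for Sca-1 and Kit in the absence of lineage markers, that had regenerated in transplanted hosts whose niche was haploinsufficient for Wnt5a, with 1 working copy of that gene (5 libraries, called Wnt5a below), or wild type (6 libraries, WT). The niche cells were sorted as EC (endothelial), OBC (osteoblastic) and MSC (mesenchymal) cells, each with 3 Wnt5a and 3 WT libraries. All libraries carry the strain label 129Ly5.1. The labels do not give the kind of Wnt5a allele, the age of the mice, the genotype of the blood donors, whether a library is 1 animal or a pool, whether the sorted niche cells come from transplanted hosts, or whether EC, OBC and MSC libraries share animals, so a p-value measures only the spread between these libraries.

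Branched actin networks are nucleated by the Arp2/3 complex, which is switched on by proteins of the WAVE and WASP families. WAVE2 (Wasf2) works inside a complex: a Cyfip protein that binds active Rac, an Nckap protein, an Abi protein and the small subunit Brk1 complete it. WASP (Was) and N-WASP (Wasl) respond to Cdc42 and are held stable or in place by WIP (Wipf1). Nckap1l (HEM1) and Was are the blood-cell relatives of the broadly expressed Nckap1 and Wasl, and in humans loss of either causes an inherited immune deficiency. In blood stem and progenitor cells these proteins drive membrane protrusion, adhesion and migration.

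The promoters of Wasf2, Wasl and Was are shown because Wasf2 was the member with enough counts in both tables, and Wasl and Was are the broad and the blood-cell gene of a pair. The proportions of that pair in summed LSK reads and summed niche UMIs stood apart, but were not tested against each other. Each window is 300 bases, from 250 before to 50 after the annotated start, read 5′ to 3′ on the strand of the gene from RefSeq on GRCm38.p6. The windows are chr4:133130383-133130682 on the plus strand for Wasf2, chr6:24664946-24665245 on the minus strand for Wasl and chrX:8090442-8090741 on the minus strand for Was. Capitals mark exact matches, on both strands, to the GC box (GGGCGG), the CCAAT box (CCAAT), the TATA box (TATAAA) and 1 form of the ETS motif (CCGGAA). Other forms of the ETS motif were not searched, so a window without CCGGAA may still hold one.
Wasf2: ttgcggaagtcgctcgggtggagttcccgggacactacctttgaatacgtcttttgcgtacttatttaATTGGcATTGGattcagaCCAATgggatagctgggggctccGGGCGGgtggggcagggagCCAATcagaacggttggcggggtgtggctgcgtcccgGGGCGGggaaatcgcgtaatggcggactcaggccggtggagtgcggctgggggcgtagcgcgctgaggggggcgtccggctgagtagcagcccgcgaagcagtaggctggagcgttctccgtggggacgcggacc
Wasl: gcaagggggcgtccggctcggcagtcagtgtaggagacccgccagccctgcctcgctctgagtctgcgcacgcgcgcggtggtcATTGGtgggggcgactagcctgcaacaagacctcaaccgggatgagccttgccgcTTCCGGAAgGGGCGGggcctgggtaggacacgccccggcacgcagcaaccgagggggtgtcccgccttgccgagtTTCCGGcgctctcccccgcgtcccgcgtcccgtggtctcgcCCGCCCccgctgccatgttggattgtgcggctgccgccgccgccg
Was: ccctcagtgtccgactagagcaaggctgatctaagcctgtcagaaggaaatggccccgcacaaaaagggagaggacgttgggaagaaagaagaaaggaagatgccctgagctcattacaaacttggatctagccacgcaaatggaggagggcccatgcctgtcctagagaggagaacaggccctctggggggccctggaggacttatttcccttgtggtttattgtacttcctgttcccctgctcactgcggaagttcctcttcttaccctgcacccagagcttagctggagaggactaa
The Wasf2 window held 29 CpG pairs, 2 GC boxes and 4 CCAAT boxes. The Wasl window held 36 CpG pairs, 2 GC boxes, 1 CCAAT box and 3 CCGGAA matches, of which a pair overlap. The Was window held 5 CpG pairs and no exact match to the 4 sequences searched. The median over 32851 RefSeq mouse promoters of the same length was 7 CpG pairs. Of those promoters, 35.7% held a GC box, 37.4% a CCAAT box, 13.6% a TATA box and 14.9% a CCGGAA match. RefSeq windows matched 7 of the 10 members, and Nckap1, Nckap1l and Cyfip1 had no entry.

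LSK libraries held 1573560 to 3690114 reads in the Wnt5a group and 1254553 to 5775459 reads in the WT group. Niche libraries were far shallower, with 18542 to 106757 UMIs in EC Wnt5a and 83254 to 117989 in EC WT, 13726 to 17874 in OBC Wnt5a and 10635 to 29772 in OBC WT, and 19999 to 48279 in MSC Wnt5a and 37352 to 50421 in MSC WT. A UMI (unique molecular identifier) marks 1 captured RNA molecule. Wnt5a itself, the gene altered in the niche, had 0 to 5 reads per LSK library in the Wnt5a group and 0 to 1 in the WT group, and was not analysed here in the niche, so its level checks no genotype label. All 9 LSK markers were detected in every LSK library, and their summed share of reads was 0.276% to 0.33% in the Wnt5a group and 0.277% to 0.359% in the WT group. That sum overlapped the share of UMIs in EC WT (0.206% to 0.351%) and MSC WT (0.226% to 0.298%), against at most 0.212% in the other niche groups. It alone does not tell LSK cells from those, where 3 to 5 (EC WT) and 2 to 3 (MSC WT) of the 9 were at 0. Endothelial markers were higher in EC than in MSC among Wnt5a libraries (1.09% to 1.56% of UMIs in EC and 0.621% to 0.855% in MSC) but did not separate EC from MSC among WT libraries (0.879% to 1.5% in EC and 1.18% to 1.4% in MSC). Mesenchymal markers were highest in MSC libraries (0.187% to 0.71% in MSC Wnt5a and 0.316% to 0.369% in MSC WT, against 0.108% to 0.129% in OBC Wnt5a, 0.0571% to 0.184% in OBC WT and at most 0.0701% in EC), where the highest OBC library nearly met the lowest MSC library, and osteoblastic markers in OBC libraries (0.189% to 0.484% in OBC Wnt5a and 0.48% to 1.46% in OBC WT, against at most 0.137% elsewhere). The LSK library Wnt5a replicate 5 stood apart: 4.08% of its reads came from 6 B and plasma cell markers, against 0.272% to 0.762% in the other Wnt5a libraries and 0.201% to 1.17% in WT. LSK results that rest on it are given with and without it, and the part of those cells in the results was not tested. Replicate 5 is also the Wnt5a library whose Nckap1 and Wasf2 values lie apart from the other 4, so a call that appears once it is left out is a description and no support for a difference. Among niche libraries EC WT replicate 14 stood apart, with 24.3% of its UMIs from 5 erythroid markers, against 1.9% to 12% in the other 17.

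LSK cells expressed all 10 members, each with reads in 11 of 11 libraries. Ordered by level per length (RPKM, CPM divided by the exon length in kilobases, median over the 11 LSK libraries), Brk1 led with 246 RPKM, its range of 162 to 291 lying above that of every other member. Abi1 (40.5), Wipf1 (37.2), Cyfip2 (33.0), Nckap1l (25.9), Wasf2 (21.2), Was (18.4), Wasl (14.2) and Cyfip1 (10.5) followed, and below Brk1 the ranges of neighbours in this order overlapped. Nckap1 was last with a median of 4.60 RPKM and the widest relative range, 0.731 to 16.3. Short transcripts such as Brk1 (1095 bases of exon) and long ones such as Cyfip1 (11941 bases) are set on 1 scale only by this division, which assumes that every annotated exon base is covered.

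Between niche genotypes no member passed the test in LSK cells with all 11 libraries, while in 4 of the 5 Wnt5a libraries Wasf2 lay above and Nckap1 below every WT library. Of the members 0 of 10 had an edgeR adjusted p under 0.05, beside 3 of 13098 genes tested (0.0229%), and 3 of 10 had an unadjusted p under 0.05 (Wasf2, Cyfip1 and Brk1), beside 18.4% of genes. The log2 fold change of Wnt5a over WT was positive for 6 members and negative for 4, with a median of 0.14, beside 0.02 over all genes tested. Without Wnt5a replicate 5, 2 of 10 members passed (Wasf2 higher, Nckap1 lower), beside 1114 of 13387 genes (8.32%), and the median over the members was 0.03, beside 0.00 over all genes. The ranges of CPM (reads scaled to the library total) overlapped between the groups for 10 of 10 members with all libraries, where 2.74% of genes did not overlap. Without replicate 5, the ranges of Wasf2, Wipf1 and Nckap1 did not overlap, which is 3 of 10 members, beside 10.6% of genes. In bulk samples fewer cells of a type and less RNA per cell cannot be told apart. Of 8 lists of cell type markers, the 10 endothelial markers did not overlap between the LSK groups, with 0.0208% to 0.0371% of reads in Wnt5a and 0.0414% to 0.0632% in WT. In both groups 0 to 2 of these markers were at 0 per library, always among Cdh5, Kdr and Flt1. Which cells the sum came from was not tested. The 6 mesenchymal markers took 0.0052% to 0.0086% of reads in Wnt5a replicates 1 to 4 and 0.0015% in replicate 5. In WT they took 0.0026% to 0.0048%, so the first 4 Wnt5a libraries lay above every WT library, as they did for Wasf2. Few reads stood behind these shares, 38 to 192 per Wnt5a library and 40 to 230 per WT library. Of the 6 markers, 1 to 4 were at 0 in each Wnt5a library and 2 to 5 in each WT library. The part of endothelial or mesenchymal cells in the LSK values was not tested.

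**Figure D1:**
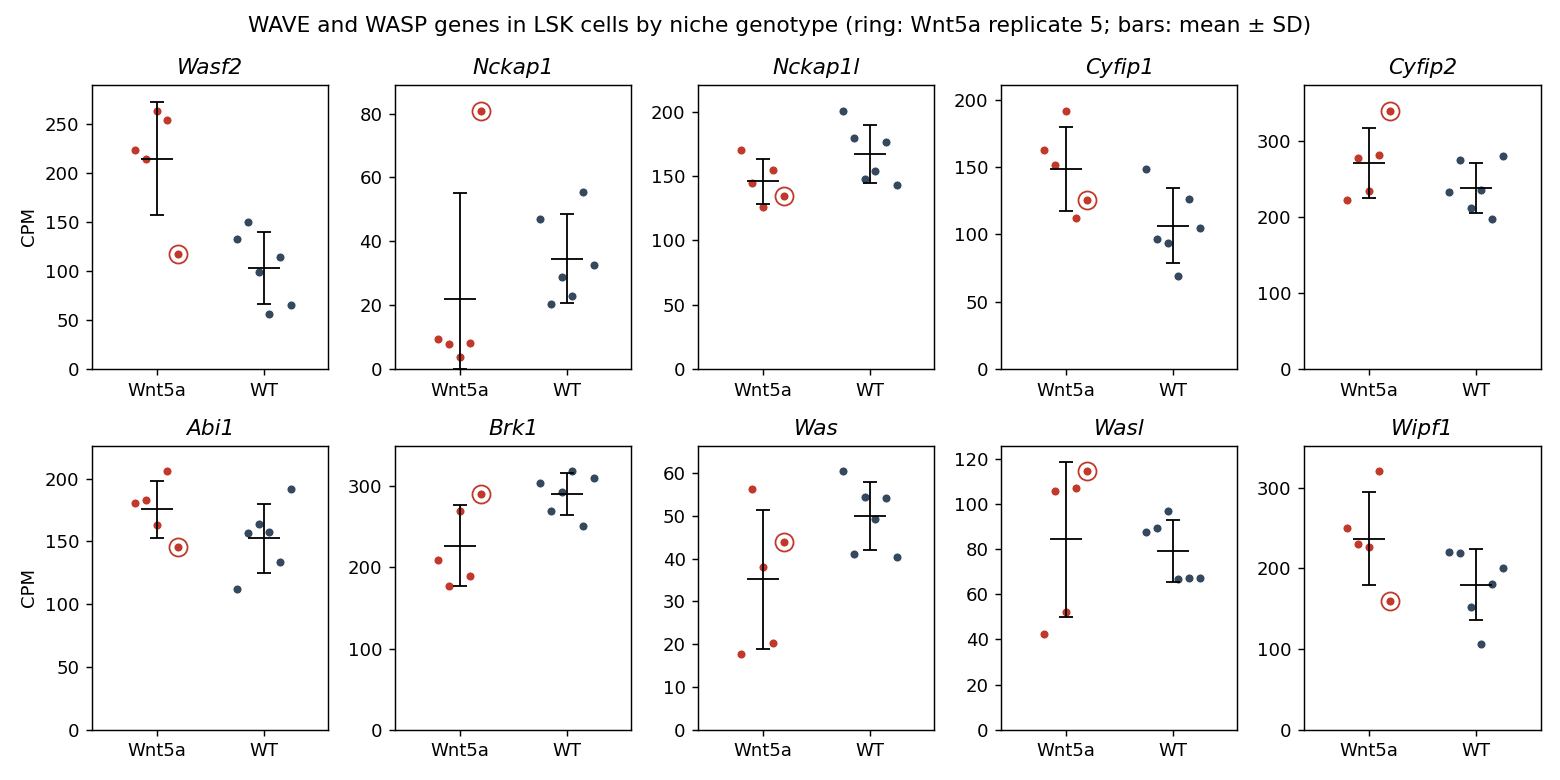
CPM (y axis, linear from 0) of the 10 members in LSK cells from Wnt5a niches (red, n = 5) and WT niches (blue, n = 6), 1 point per library; black bars are the mean ± SD, cut off at 0 for Nckap1. The ringed point is Wnt5a replicate 5, which is the highest Nckap1 value (80.9 CPM) and the lowest Wnt5a value of Wasf2 (118 CPM).

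Wasf2 encodes WAVE2, the subunit that carries the Arp2/3-binding end of the complex (ENSMUSG00000028868, chromosome 4, 133130505 to 133199756, plus strand; all gene coordinates are on GRCm38). It had 224, 214, 264, 254 and 118 CPM in Wnt5a replicates 1 to 5, against a lowest of 56.2, a median of 106 and a highest of 149.7 CPM in the 6 WT libraries. The first 4 Wnt5a libraries lay above every WT library, and replicate 5 lay inside the WT range. The means were 215 ± 58.0 CPM in Wnt5a and 103 ± 36.9 CPM in WT (SD, n = 5 and 6). The log2 fold change was 1.07 (SE 0.26, 95% interval 0.55 to 1.59), a 2.10-fold higher mean, with an edgeR adjusted p of 0.0817. Without replicate 5 the log2 fold change was 1.23 (SE 0.25, adjusted p = 0.0105). It also passed in DESeq2 on all 11 libraries (adjusted p = 0.00921), where it was the only member among 5.41% of genes called. The same held in the edgeR fit with no low-count filter (adjusted p = 0.00883, 1.13% of genes called).

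Nckap1 and Nckap1l encode the alternative NAP subunits of the complex, which hold the Cyfip subunit. Nckap1 (ENSMUSG00000027002, chromosome 2, 80500512 to 80581380, minus strand) had 9.5, 7.66, 3.63, 8.23 and 80.9 CPM in Wnt5a replicates 1 to 5, against 20.4 to 55.5 CPM in WT with a median of 30.6. In Wnt5a replicates 1 to 4 Nckap1 lay below every WT library, and in replicate 5 above every one. Behind these values stood 28, 27, 6, 11 and 186 reads in the Wnt5a libraries and 49 to 182 reads in WT. With all libraries the log2 fold change was -0.63 (SE 0.64, adjusted p = 0.629) in edgeR and -1.39 (SE 0.56, unadjusted p = 0.0238, adjusted p = 0.169) in limma voom, and the coefficient of variation among Wnt5a libraries was 150%, above that of 98.2% of genes. Without replicate 5, the only Wnt5a library on the other side of WT, the log2 fold change was -2.22 (SE 0.42), with means of 7.26 ± 2.54 CPM in Wnt5a and 34.5 ± 13.9 CPM in WT (SD, n = 4 and 6). The depth allows these values, since 3 reads, taken as the floor of detection, equal at most 1.91 CPM in the Wnt5a libraries.

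Nckap1l (ENSMUSG00000022488, chromosome 15, 103453794 to 103498810, plus strand) was among the steadiest members. It had 171, 145, 126, 155 and 135 CPM in Wnt5a replicates 1 to 5, against 143 to 201 CPM in WT with a median of 165. The groups overlapped, and the log2 fold change was -0.19 (SE 0.16, adjusted p = 0.563). Only 2.20% of genes varied less than Nckap1l among the Wnt5a libraries and 7.79% among the WT libraries. Nckap1l made up 94.7%, 95%, 97.2%, 95% and 62.5% of the reads of both genes in Wnt5a replicates 1 to 5, against 76.1% to 89.8% in WT. The difference between the means was 5.65 percentage points (88.9% ± 14.8 in Wnt5a libraries and 83.2% ± 4.83 in WT libraries, SD), with a two-sided exact permutation p of 0.424 (0.424 adjusted over 3 paralogue shares). Replicate 5 alone lay below the WT range, and the difference between the means of the other 4 Wnt5a libraries (95.5% ± 1.16) and of WT was 12.2 points, given with no test because the library left out is the contrary one.

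**Figure D2:**
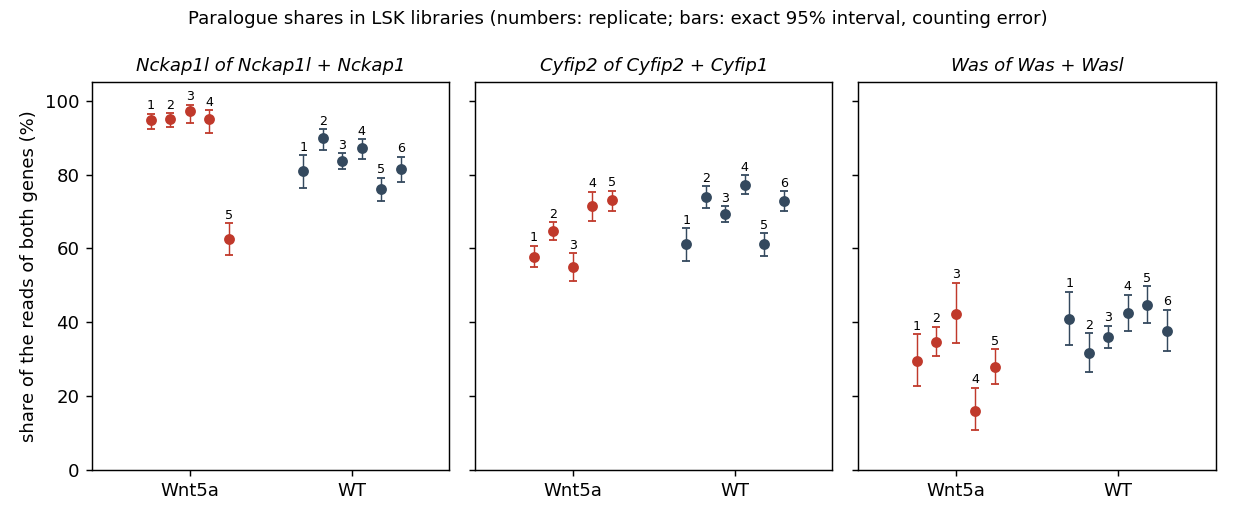
Share of reads (y axis, percent) taken by Nckap1l, Cyfip2 and Was out of the reads of each with its paralogue, in LSK libraries from Wnt5a niches (red) and WT niches (blue). Points are libraries numbered by replicate and bars are exact 95% binomial intervals (counting error only); Wnt5a replicate 5 has the lowest Nckap1l share, 62.5%, while the other 4 Wnt5a libraries lie above all WT libraries.

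Cyfip1 and Cyfip2 encode the subunits through which Rac activates the complex. Cyfip1 (ENSMUSG00000030447, chromosome 7, 55841745 to 55932602, plus strand) had 162, 151, 192, 112 and 126 CPM in Wnt5a replicates 1 to 5, against 69.0 to 148 CPM in WT with a median of 100.4. In 3 Wnt5a libraries it lay above all WT libraries, and the log2 fold change of 0.49 (SE 0.21) did not pass (unadjusted p = 0.0342, adjusted p = 0.233). Its exons overlap those of Nipa2 on the opposite strand, and reads of the genes cannot be told apart there because strand use in counting is not given in the sources used here. Cyfip2 (ENSMUSG00000020340, chromosome 11, 46193850 to 46312859, minus strand) had 222 to 339.6 CPM in Wnt5a libraries, against 198 to 279 CPM in WT, with a log2 fold change of 0.19 (SE 0.16, adjusted p = 0.561). Cyfip2 took the larger share of the pair in every LSK library, 64.4% ± 7.99 in Wnt5a and 69.3% ± 6.85 in WT (SD, n = 5 and 6). The shares overlapped between genotypes (difference -4.87 points, exact permutation p = 0.294, adjusted 0.424).

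Abi1 and Brk1, the adaptor and the small subunit of the complex, did not pass with or without replicate 5. Abi1 (ENSMUSG00000058835, chromosome 2, 22940073 to 23040241, minus strand) had 145 to 206 CPM in Wnt5a libraries, against 112 to 192 CPM in WT, with a log2 fold change of 0.21 (SE 0.17, adjusted p = 0.547). Its exons overlap those of Pdss1 on the opposite strand, with the same limit as for Cyfip1. Brk1 (ENSMUSG00000033940, chromosome 6, 113604772 to 113616951, plus strand) had 209, 177, 269, 190.0 and 290.0 CPM in Wnt5a replicates 1 to 5, against 251 to 318 CPM in WT with a median of 298. It lay below every WT library in 3 Wnt5a libraries. The log2 fold change of -0.35 (SE 0.17) did not pass (unadjusted p = 0.0494, adjusted p = 0.271), nor did that of -0.46 without replicate 5 (adjusted p = 0.0887).

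In the WASP branch, Was (ENSMUSG00000031165, chromosome X, 8081453 to 8090498, minus strand) had 17.6, 56.2, 38.1, 20.2 and 43.9 CPM in Wnt5a replicates 1 to 5, against 40.5 to 60.4 CPM in WT with a median of 51.8. In 3 Wnt5a libraries Was lay below all WT libraries, and the log2 fold change was -0.49 (SE 0.31, adjusted p = 0.400). Wasl (ENSMUSG00000029684, chromosome 6, 24613805 to 24665009, minus strand) had 42.4, 106, 52.0, 107 and 114 CPM in Wnt5a replicates 1 to 5, on both sides of the WT range of 66.7 to 96.9 CPM. Its log2 fold change of 0.095 (SE 0.27, adjusted p = 0.882) was negative without Wnt5a replicate 2, 4 or 5. Was made up 30.0% ± 9.71 of the reads of Was and Wasl in Wnt5a libraries and 38.9% ± 4.79 in WT (SD), a difference of -8.86 points (exact permutation p = 0.0779, adjusted 0.234) that ranged from -11.9 to -5.33 when each library was left out. Wipf1 (ENSMUSG00000075284, chromosome 2, 73429610 to 73529734, minus strand) had 249, 229.8, 226, 320.1 and 159 CPM in Wnt5a replicates 1 to 5, against 106 to 221 CPM in WT with a median of 190.4. As with Wasf2, the first 4 libraries lay above the WT range and replicate 5 inside it. The log2 fold change was 0.40 (SE 0.21, adjusted p = 0.319), and 0.52 without replicate 5 (adjusted p = 0.122).

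**Figure D3:**
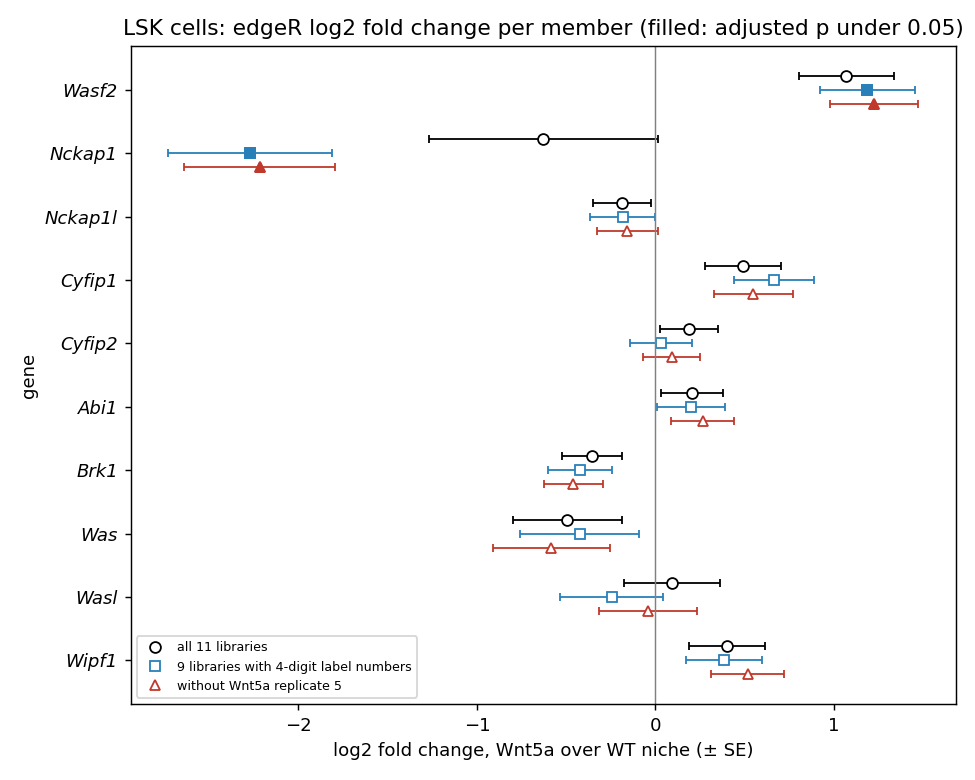
Log2 fold change (x axis, Wnt5a over WT niche, ± SE) of each member in LSK cells from edgeR fits to all 11 libraries (circles), to the 9 libraries with 4-digit label numbers (squares) and without Wnt5a replicate 5 (triangles); filled symbols passed an adjusted p of 0.05. Wasf2 lies between 1.07 and 1.23 in the 3 fits, while Nckap1 lies at -0.63 with all libraries and at -2.27 and -2.22 in the other fits.

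The numbers in the LSK labels have 4 digits in all WT libraries and in Wnt5a replicates 1 to 3, and 3 digits in Wnt5a replicates 4 and 5. What the numbers stand for is not given, and the 3-digit labels hold no WT library, so no difference can be had within them. Within the 4-digit labels (3 Wnt5a and 6 WT libraries) 2 of 10 members passed, beside 882 of 13910 genes (6.34%). This set also lacks replicate 5. Wasf2 stood at 1.19 (SE 0.27, adjusted p = 0.0213) and Nckap1 at -2.27 (SE 0.46, adjusted p = 0.0159) on the log2 scale. Cyfip1 stood at 0.66 (adjusted p = 0.0821). The Nckap1l share was 95.6% ± 1.36 in those Wnt5a libraries and 83.2% ± 4.83 in WT, a difference of 12.4 points (exact permutation p = 0.0238, and 0.0714 adjusted over 3 shares, where so few libraries allow no lower p). As the contrary replicate 5 is absent here, that p is a description and no support for a difference. With all libraries the exact permutation p was 0.424.

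Across the 11 LSK libraries the members did not vary as 1 block. On log2 CPM, Wasf2 varied most closely with Wipf1 (Pearson r = 0.81, Spearman rho = 0.87) and Cyfip1 (r = 0.75, rho = 0.73), and inversely with Brk1 (r = -0.75, rho = -0.73) and Nckap1 (r = -0.68, rho = -0.69). These 11 points share genotype groups and library preparation and are given as a description. Among the genes tested, with predicted and unnamed genes left out, those most like Wasf2 over the 11 libraries were Chmp4b (r = 0.98), Ttyh3 (0.97), Rexo1 (0.97), Sun2 (0.97) and Pnn (0.97). Those most like Nckap1 were Rgs1 (r = 0.96), Lmbrd2, Ascc3, Naip5 and Ptn (each 0.92).

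Of 56 other genes of the pathway, 51 could be tested in LSK cells and 0 passed in edgeR with all libraries (11 at an unadjusted p under 0.05, beside 18.4% of all genes, and 2, Arhgef7 and Dock2, called in DESeq2, beside 5.41%, and 0 in limma voom). These shares lie near those of all genes. Of the 51, 32 had a positive and 19 a negative log2 fold change (median 0.14, beside 0.02 over all genes). The lowest p-values belonged to exchange factors that load Rac or Cdc42 with GTP. Arhgef7 (beta-PIX) had 106 ± 45.2 CPM in Wnt5a and 41.4 ± 10.7 CPM in WT (log2 fold change 1.35, adjusted p = 0.0607), and Dock2, the Rac activator of blood cells, 270.2 ± 78.6 CPM in Wnt5a and 166 ± 25.3 CPM in WT (0.71, adjusted p = 0.0964). Among 9 Arp2/3 subunits, Arpc3 stood at -0.77 (adjusted p = 0.197) and Actr2, the ARP2 protein itself, at 0.41 (0.208). Among 11 upstream activators the membrane-bending Fnbp1 stood at 0.49 and the adaptor Nck1 at 0.57 (adjusted p = 0.229 for both). Among other nucleation promoters the WASH complex subunits Washc3 and Washc2 stood at -0.57 (0.223) and 0.52 (0.233). The Rac-binding WAVE inhibitor Cyrib stood at 0.44 (0.242) and the coronin Coro1b at 0.41 (0.280), and the paralogues Abi2 and Wipf2 at 0.09 (0.875) and -0.02 (0.981).

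Without Wnt5a replicate 5, 5 of the 51 pathway genes passed, a share near the 8.32% of all genes. The log2 fold changes were 1.56 for Arhgef7 (adjusted p = 0.00369), 0.83 for Dock2 (0.0135), 0.74 for Nck1 (0.0435), -0.86 for Washc3 (0.0178) and -1.03 for Arpc3 (0.0435). Within the 4-digit labels Arhgef7, Dock2, Washc3 and Arpc3 passed, which is 4 of 53 genes tested, beside 6.34% of all genes.

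In the niche only Wasf2 had enough UMIs to pass the filter on low counts (1 of 10 members), so the other 9 are described by their counts. Summed over the 18 niche libraries, Wasf2 had 298 UMIs, Brk1 79, Cyfip1 74, Nckap1 73, Wasl 56, Wipf1 45 and Abi1 43, out of 842698. Cyfip2 had 8, Was 6 and Nckap1l 5. Wasf2 was detected in 18 of 18 niche libraries, Nckap1 in 15 and Nckap1l in 4.

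Summed over the niche, the 3 pairs of paralogues stood in another proportion than in LSK cells, mostly on EC and MSC counts. Nckap1l made up 5 of 78 niche UMIs of its pair (6.41%, exact 95% interval 2.11% to 14.3%), against 84.4% of the LSK reads. Cyfip2 made up 8 of 82 (9.76%, 4.31% to 18.3%), against 67.5%, and Was 6 of 62 (9.68%, 3.64% to 19.9%), against 35.6%. The LSK shares are of reads not divided by exon length. Per length, Was (median 18.4 RPKM) stood above Wasl (14.2 RPKM) in LSK cells, while the other pairs kept their order. Was lay below Wasl in Wnt5a replicates 4 (8.48 and 17.4 RPKM) and 5 (18.44 and 18.55 RPKM), and above it in every other LSK library. OBC had too few UMIs to place: Nckap1l made up 3 of 7 there (42.9%, 9.90% to 81.6%), Cyfip2 0 of 6 (up to 45.9%) and Was 2 of 3 (66.7%, 9.43% to 99.2%). The niche libraries were made with UMIs and the LSK libraries with Smart-seq2, so these shares were not tested against each other, and the intervals cover counting error only. The few Nckap1l UMIs lay in EC Wnt5a replicate 17 (1), EC WT replicate 13 (1) and OBC WT replicates 7 (1) and 8 (2). Of 10 pan-leukocyte markers, 2 to 7 were at 0 in each niche library, and their summed share was 0.035% to 0.0759% in EC Wnt5a and 0.0305% to 0.0398% in EC WT, 0.0656% to 0.0967% in OBC Wnt5a and 0.0575% to 0.094% in OBC WT, and 0.0687% to 0.095% in MSC Wnt5a and 0.0614% to 0.0857% in MSC WT. In LSK cells the share was 0.296% to 0.598% in Wnt5a and 0.336% to 0.462% in WT. The part of blood cells in these few UMIs was not tested.

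**Figure D4:**
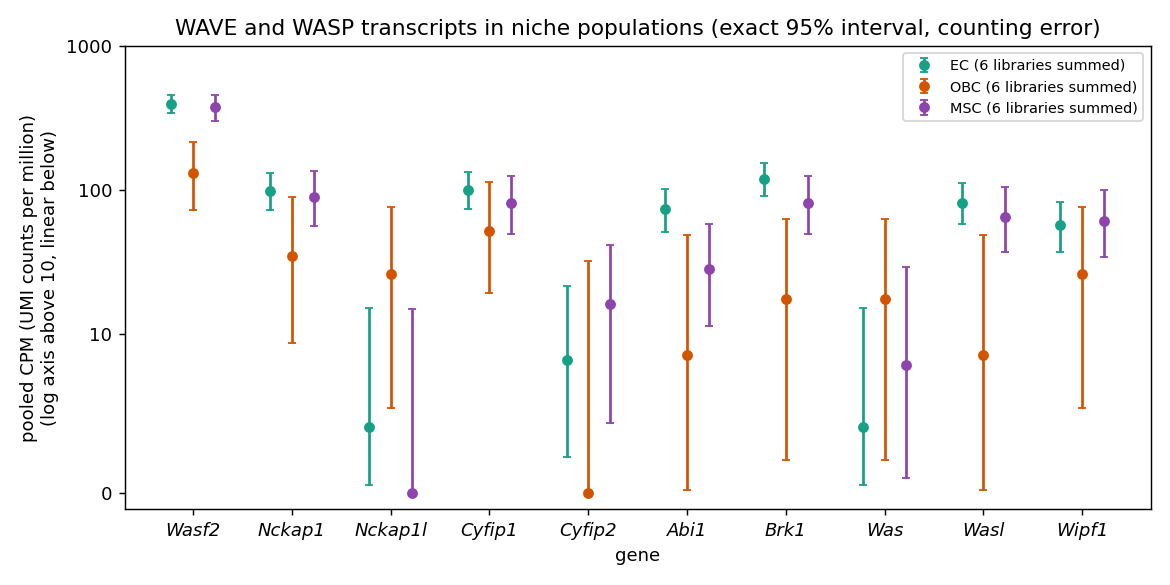
Pooled CPM (y axis, log above 10 and linear below) of the 10 members in EC, OBC and MSC, each point the sum of 6 libraries of both genotypes, with exact 95% intervals for counting error. Wasf2 is the most counted member in all 3 populations, and Nckap1l, Cyfip2 and Was are the least counted in EC and MSC.

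With both genotypes pooled, Wasf2 was lower in OBC than the mean of EC and MSC, and higher in EC than the mean of OBC and MSC. Summed per population it reached a pooled CPM (from the summed UMIs and plain totals) of 397 in EC (190 UMIs), 130 in OBC (15 UMIs) and 375 in MSC (93 UMIs). The exact intervals of EC (342 to 457) and MSC (302 to 459) overlapped. Against the mean of the other populations, with both genotypes, Wasf2 was higher by 0.78 in EC (SE 0.29, edgeR adjusted p = 0.0282) and fell by 1.27 in OBC (SE 0.39, adjusted p = 0.00648) on the log2 scale, while in MSC it stood at 0.49 (SE 0.31, adjusted p = 0.402). Of the genes tested, 40% were called in EC, 46% in OBC and 6.73% in MSC, and the median of all genes was 0.19, -0.24 and 0.08 in the same order. In WT libraries alone neither call remained (0.42 in EC, adjusted p = 0.440, and -1.21 in OBC, adjusted p = 0.0617). MSC there stood at 0.80 against the mean of EC and OBC (unadjusted p = 0.0487, adjusted p = 0.211). The WT means were 369 ± 65.5 CPM in MSC, 320.2 ± 18.1 CPM in EC and 170 ± 67.0 CPM in OBC (SD, n = 3 each). MSC was not tested against EC alone. In that fit 19.1% of genes were called in EC, 35.2% in OBC and 3.7% in MSC. Each fit treats all its libraries as independent. The EC call was also lost without EC Wnt5a replicate 16, OBC WT replicate 8 or OBC Wnt5a replicate 11 (0.67, 0.69 and 0.71).

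Abi1 and Wasl had most of their niche UMIs in EC, which held 478853 of all 842698 niche UMIs. Abi1 had 35 UMIs in EC (pooled CPM 73.1, exact interval 50.9 to 101.7), 1 in OBC (8.65, 0.219 to 48.2) and 7 in MSC (28.2, 11.3 to 58.1). Wasl had 39 UMIs in EC (pooled CPM 81.4, 57.9 to 111.3), 1 in OBC (8.65, 0.219 to 48.2) and 16 in MSC (64.5, 36.9 to 104.7). The EC and MSC intervals overlapped for both genes. Of the Wasl UMIs in EC, 17 lay in Wnt5a replicate 17. In the fit with no low-count filter, 3 of 10 members were called higher in EC, namely Wasf2 (1.16, adjusted p = 0.00753), Abi1 (2.56, 0.0165) and Wasl (2.16, 0.0491). Of the 15930 genes in that fit 5.52% were called, but these include genes with very few UMIs. Of the 1099 genes past the low-count filter 40% were called in the main fit. The Abi1 and Wasl calls had 1 OBC UMI each behind them. Brk1 had 57, 2 and 20 UMIs in EC, OBC and MSC, Nckap1 47, 4 and 22, and Wipf1 27, 3 and 15.

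By niche genotype, Wasf2 was called in none of the 3 populations. It had 15, 38 and 28 UMIs in EC Wnt5a replicates 16 to 18 (693, 289 and 467 CPM), against 35, 24 and 50 UMIs in EC WT replicates 13 to 15 (324, 300.4 and 336 CPM). It had 2, 1 and 4 UMIs in OBC Wnt5a (131, 70.0 and 352 CPM), against 4, 2 and 2 in OBC WT (201, 92.9 and 215 CPM). It had 5, 12 and 18 UMIs in MSC Wnt5a (222, 258 and 398 CPM), against 24, 18 and 16 in MSC WT (426, 385 and 297.5 CPM). The groups overlapped in each population. The log2 fold change was 0.41 in EC (SE 0.40, adjusted p = 0.812), 0.09 in OBC (SE 0.77, adjusted p = 0.987) and -0.43 in MSC (SE 0.44, adjusted p = 0.640). The share of genes called was 0.364% in EC, 1.27% in OBC and 0.455% in MSC. Without EC WT replicate 14 the EC value was 0.27 (adjusted p = 0.894), and Wasf2 still passed between populations (0.86 in EC and -1.35 in OBC).

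**Figure D5:**
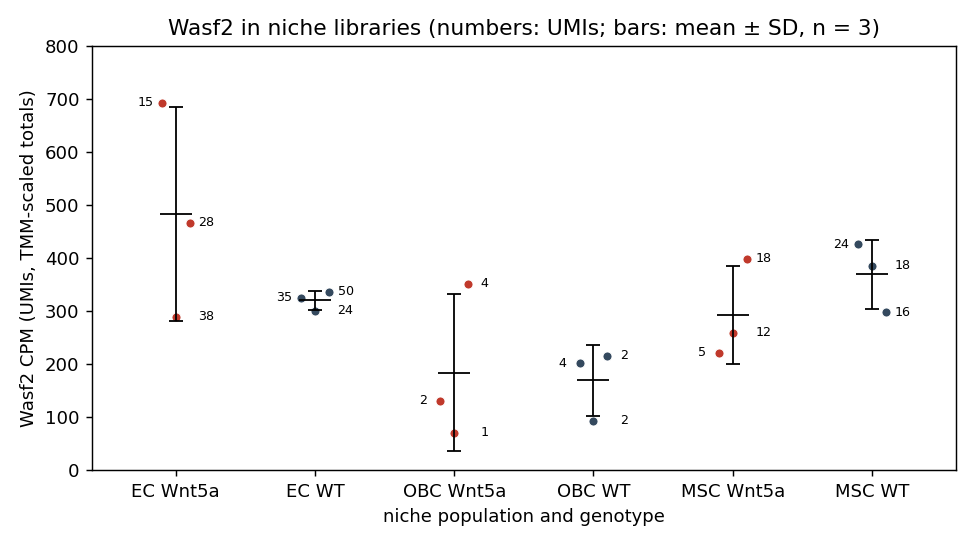
Wasf2 in each niche library as CPM (y axis, from UMI counts with TMM-scaled totals), Wnt5a (red) left of WT (blue) for EC, OBC and MSC; printed numbers are UMIs and black bars the mean ± SD (n = 3). The highest library, EC Wnt5a replicate 16 at 693 CPM, rests on 15 UMIs, and OBC libraries hold 1 to 4 UMIs each.

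The mean of the 3 Wasf2 differences was 0.02 (SE 0.33, 95% interval -0.61 to 0.66, adjusted p = 0.987), beside 3.09% of genes called, and its sign turned with RLE scaling (-0.045). A test of whether the genotype difference varied with population gave an adjusted p of 0.792. Under RLE scaling the median of all genes in MSC moved to -0.24, against -0.03 under TMM, and Wasf2 there to -0.64.

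Cyfip1 had a lower pooled CPM in Wnt5a than in WT niche cells in each population, on few counts. In EC it had 1, 6 and 2 UMIs in Wnt5a replicates 16 to 18, against 13, 6 and 20 in WT replicates 13 to 15. The CPM ranges in EC did not overlap (33.3 to 46.2 in Wnt5a and 75.1 to 134 in WT), which held for 13.7% of the 1895 genes with at least as many UMIs in EC. In MSC it had 3, 0 and 1 UMIs in Wnt5a, against 5, 5 and 6 in WT, and in OBC 0, 0 and 1 in Wnt5a, against 1, 4 and 0 in WT. Summed over EC, that is a pooled CPM of 49.3 in Wnt5a (exact interval 22.6 to 93.7) and 132 in WT (93.5 to 179.8). Without the low-count filter the mean of the 3 differences was -1.64 (SE 0.61, unadjusted p = 0.00694, adjusted p = 0.651), which did not pass, and in LSK cells Cyfip1 stood on the other side of 0 (0.49). Neutrophil markers moved with genotype in the same libraries (0.137% to 0.26% of UMIs in EC Wnt5a and 0.03% to 0.0424% in EC WT, 0.525% to 0.888% in OBC Wnt5a and 0.226% to 0.461% in OBC WT, 0.24% to 0.356% in MSC Wnt5a and 0.107% to 0.136% in MSC WT). In MSC the ranges of the endothelial markers given above and of the 9 LSK markers (0.144% to 0.2% in MSC Wnt5a and 0.226% to 0.298% in MSC WT) also did not overlap, both lower in Wnt5a, beside the lower MSC values of Wasf2 and Cyfip1. In EC the B and plasma cell markers (0.0262% to 0.0701% in EC Wnt5a and 0.00945% to 0.0203% in EC WT) and the mesenchymal markers (0.0393% to 0.0701% in EC Wnt5a and 0.0137% to 0.039% in EC WT) did not overlap either. Which cells gave these markers, and their part in the niche values, was not tested.

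Among the 56 other pathway genes, 9 could be tested in the niche and 0 passed by genotype in EC, OBC, MSC or their mean in edgeR, DESeq2 or limma voom. DESeq2 gave an adjusted p to only 290 of 1099 genes in MSC (45 called) and 566 in the mean (38 called). Its 0 there covers only those of the 9 that had an adjusted p. In edgeR 1 of the 9 had an unadjusted p under 0.05 in each population and 4 in the mean, beside 8.1% of genes in EC, 8.37% in OBC, 18.5% in MSC and 16.6% in the mean. The smallest p-values in the mean belonged to Actr2 (0.85, adjusted p = 0.172) and Arpc1b (0.30, 0.721) of the Arp2/3 complex, to Coro1a (1.36, 0.217), a coronin of blood cells and one of the 10 pan-leukocyte markers, and to the GTPases Rac1 (-0.84, 0.289) and Cdc42 (-0.77, 0.296). Between populations 4 of the 9 passed in EC, beside 40% of genes, and 3 in OBC, beside 46%. Rac1 (1.12, adjusted p = 0.00715), Arf1 (1.01, 0.0424), both GTPases that activate the WAVE complex, and Arpc1b (0.79, 0.0293) were higher in EC, and Coro1a was lower (-3.06, 0.000403). In OBC Rac1 (-2.07, 0.000567) and Arpc1b (-1.0, 0.0392) were lower and Coro1a higher (2.96, 8.15e-05). Both Arpc1b calls were lost in limma voom (0.67 in EC, adjusted p = 0.0592, and -0.80 in OBC, adjusted p = 0.1001), where 43% of genes were called in EC, 43.3% in OBC and 4.46% in MSC, and the calls of Rac1, Arf1 and Coro1a were kept there and in DESeq2. In MSC 0 of the 9 passed in any of these tools, and 1 (Rac1) had an unadjusted p under 0.05. DESeq2 gave an adjusted p to only 715 of 1099 genes in that comparison (59 called), so its 0 has the same limit.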

How the data were processed

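Per the labels, Smart-seq2 was used for LSK cells and UMIs for niche cells. The authors deposited 1 table of raw read counts per Ensembl gene (LSK, 38924 genes) and 1 of UMI counts (niche, 18194 genes). The submitters' processing notes name STAR, featureCounts, mm10 and GRCm38 with no version. Not given in the sources used here are the annotation release, strand use and UMI collapse. Of the niche rows, 28 were spike-ins and were left out. Symbols came from a table of Ensembl names, and coordinates and exon lengths from GENCODE for GRCm38.

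From the deposited counts, edgeR 4.0.16 in R 4.3.3 (TMM, filterByExpr with a minimum count of 10 and total of 15, robust quasi-likelihood) fitted the 11 LSK libraries in 2 groups and the 18 niche libraries with 6 group means. Log2 fold changes are Wnt5a over WT, or a population over the mean of the others. SE was taken as the log2 value over the root of F. P-values were adjusted (Benjamini-Hochberg) over all genes tested, with a threshold of 0.05. CPM use TMM-scaled totals, and log2 CPM a prior count of 2. Paralogue shares were compared by exact two-sided permutation tests (smallest possible p 0.00433 with 5 against 6 libraries and 0.0238 with 3 against 6). Intervals of counts and shares are exact, at 95%, and cover counting error only, and the floor of detection is 3 counts. LSK replicates are numbered in accession order, and niche replicates as in the labels. Alternatives were RLE scaling, no filter, DESeq2 1.42.0, limma voom 3.58.1, subsets of libraries and each library left out.

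The 10 members and the lists of pathway genes and markers were chosen with earlier results of these data known. All members are named. Of 56 pathway genes, those past the test in a comparison are named, with the 2 smallest p-values per list in LSK cells and in the niche mean. Genes most like Wasf2 and Nckap1 are the 5 with the highest Pearson r, after predicted and unnamed genes (Gm numbers, Rik names and bare Ensembl IDs) were left out.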

Additional observations from a re-analysis of the deposited data

Results flagged for a closer look

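Of 26 groups of LSK libraries checked for an outlying value (10 members and 3 paralogue shares in each genotype), 2 held a library far from the others, where chance flags about 1 in 20. Both are Wnt5a replicate 5. Its Nckap1 value was 80.9 CPM, while the other Wnt5a libraries had 3.63 to 9.5 CPM. Its Nckap1l share of the reads of both NAP genes was 62.5%, while the other Wnt5a libraries had 94.7% to 97.2%. The share follows from the same Nckap1 reads, since Nckap1l itself stood at 135 CPM in that library, inside the range of 126 to 171 CPM of the others.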

How the results depend on the processing

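The direction of the 10 LSK fold changes was kept in each alternative except for Wasl, which stood at -0.012 in limma voom, at -0.25 in the 4-digit labels and between -0.041 and 0.27 when each library was left out. Members called in LSK cells numbered 0 with all libraries, 1 with no low-count filter, 1 in DESeq2, 2 in the 4-digit labels and 0 to 2 when each library was left out, with 2 only without Wnt5a replicate 5. Nckap1 stood at -1.39 in limma voom, against -0.63 in edgeR. Genes called in LSK cells numbered 3 with all libraries, 343 with no filter, 679 in DESeq2, 0 in limma voom, 882 in the 4-digit labels and 0 to 1114 when each library was left out. With all libraries 2414 genes had an unadjusted p under 0.05 in edgeR and 2871 in limma voom. The Nckap1l share difference was 12.4 points in the 4-digit labels and 3.57 to 12.2 points when each library was left out, and the difference in the share of Was ran from -11.9 to -5.33 points.

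In the niche, the mean Wasf2 difference was -0.045 with RLE scaling and in DESeq2, -0.056 with no filter, -0.029 in limma voom and -0.24 to 0.17 when each library was left out. In OBC it was -0.011 in limma voom and -0.69 to 0.49. Genes called in EC by genotype numbered 4, 2 in a fit of EC alone and 2 to 22 when each library was left out, and in OBC 14 and 3 to 17. In MSC they numbered 5, 9 with RLE scaling, 0 with no filter, 45 in DESeq2 (of 290 genes with an adjusted p), 11 in limma voom, 71 in a fit of MSC alone and 0 to 42. In the niche mean they numbered 34 (24 higher, 10 lower), 29 with RLE scaling (16 higher, 13 lower), 14 with no filter and 14 to 71. Between populations, EC calls numbered 440, 880 with no filter and 176 in WT alone. OBC calls numbered 506, 789 with no filter and 324 in WT alone. MSC calls numbered 74, 49 in limma voom, 34 in WT alone and 38 to 94. The cause of these shifts was not tested.

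No paired analysis was made because the labels state no pairs. The niche groups share no replicate numbers, and the LSK labels number no replicates. Whether EC, OBC and MSC libraries share animals is not given, so no animal block was fitted. Depth limits the niche: 3 UMIs equal 28.1 to 219 CPM in Wnt5a libraries and 25.4 to 282 CPM in WT libraries, and 9 of 10 members had too few for the test.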
